A study of Mus musculus with 20 samples.

Results

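The 40 genes described here encode the enzymes and transporters that carry glucose carbon from uptake to the end of the TCA cycle. They were chosen by name: 16 genes of glucose uptake and glycolysis, 5 of lactate handling, 7 of the pyruvate dehydrogenase complex and its kinases, and 12 of the TCA cycle. All 40 were found among the 46078 genes of the count tables and all passed the filter on low counts in each comparison. RNA was sequenced from brain tissue of male C57BL/6J wild-type mice aged 18 months, 7 weeks after DH stroke, in which occlusion of the distal middle cerebral artery is combined with hypoxia. Every animal had a stroke, so the reference tissue was the opposite hemisphere of a stroke brain and no uninjured mouse was included. Beginning 1 week after stroke, each mouse received PBS vehicle or HPBCD (hydroxypropyl-β-cyclodextrin), a sugar ring able to take up cholesterol, given subcutaneously at 4 g/kg 3 times per week for 6 weeks. The tissue beside the infarct (peri-infarct) and the matching contralateral tissue gave 5 libraries each per treatment, 20 in all. Libraries are named by their labelled treatment throughout. No measurement here identifies the agent an animal received, so the direction of every difference between treatments rests on the labels alone.

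Glycolysis splits glucose into pyruvate in the cytosol and yields ATP without oxygen. Pyruvate is then reduced to lactate by lactate dehydrogenase, or enters the mitochondrion, where the pyruvate dehydrogenase complex turns it into acetyl-CoA for the TCA cycle, which feeds electrons to respiration. In brain, astrocytes are known for glycolysis and lactate release and neurons for oxidative use of glucose and lactate, and the pyruvate dehydrogenase kinases act as a brake at the branch point.

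Gene counts per library ranged from 14445021 to 22171627, at which 3 counts correspond to 0.135 to 0.208 CPM (counts scaled to a common library total). The least counted of the 40 genes, Slc16a3, had 22 to 185 counts per library. Together the 40 genes took 0.760% to 1.01% of the gene counts in HPBCD peri-infarct libraries, 0.957% to 1.15% in vehicle peri-infarct, 1.11% to 1.18% in vehicle contralateral and 1.05% to 1.20% in HPBCD contralateral libraries. The tissue mix differed between groups as well. Summed CPM of 7 neuronal markers was 8214 to 9818 in vehicle contralateral and 5096 to 7066 in vehicle peri-infarct libraries (3 of 7 markers lower), against 10030 to 10700 and 2826 to 5260 in HPBCD libraries (7 of 7 lower). Excitatory neuron markers summed to 3628 to 5580 and 4021 to 5427 CPM in the vehicle regions (0 of 5 called) and to 4592 to 5404 and 2130 to 4867 CPM in the HPBCD regions (4 of 5 lower). General astrocyte markers summed to 3676 to 4275 and 4609 to 8899 CPM in the vehicle regions and to 3409 to 4686 and 7293 to 10210 CPM in the HPBCD regions (5 of 7 higher beside the infarct in both), and of 3 oligodendrocyte precursor markers 2 were higher in vehicle tissue (153 to 192 against 177 to 253 CPM) and 3 in HPBCD tissue (148.5 to 169 against 204 to 274 CPM). Summed CPM of 6 reactive astrocyte markers was 195 to 374 and 720.1 to 3671 in the vehicle regions, and 159.9 to 221 and 3177 to 6476 in the HPBCD regions (6 of 6 higher in both treatments). Gfap was counted in this list and in the general astrocyte list, so their sums are not independent. The 7 microglia and macrophage markers summed to 225 to 263 and 363 to 902 CPM in vehicle and to 217 to 248 and 585 to 1035 CPM in HPBCD tissue (7 of 7 higher in both). Of 5 fibroblast and meningeal markers, 1 was higher beside the infarct in vehicle tissue (13.2 to 93.3 against 45.1 to 255 CPM) and 5 in HPBCD tissue (22.0 to 78.5 against 292 to 957 CPM). Oligodendrocyte markers summed to 4470 to 11650 and 6030 to 14510 CPM in the vehicle regions (0 of 6 called) and to 5488 to 6925 and 12430 to 19120 CPM in the HPBCD regions (6 of 6 higher). Fast-spiking interneuron markers summed to 337 to 594 and 139.5 to 220.9 CPM in the vehicle regions and to 609 to 706 and 84.8 to 176 CPM in the HPBCD regions (4 of 4 lower beside the infarct in both). Ependymal markers summed to 3.70 to 31.9 and 18.1 to 46.3 CPM with vehicle (2 higher of 3 tested) and to 5.19 to 8.82 and 68.7 to 135 CPM with HPBCD (4 of 4 higher). Striatal markers summed to 231 to 1234 CPM in vehicle and 367 to 1150 CPM in HPBCD peri-infarct libraries, against 139 to 170.1 CPM in HPBCD contralateral libraries (6 of 6 higher), and none of the 6 was called in vehicle tissue, where contralateral libraries gave 123.5 to 2060 CPM. No marker of these lists was at 0 throughout a group. By striatal markers 1 contralateral library stood apart: vehicle contralateral replicate 1 had 2060 CPM of summed striatal markers, against 123 to 192 CPM in the other vehicle contralateral libraries, and without it 17 rather than 20 of the 40 genes differed between regions in vehicle tissue. In bulk tissue, fewer cells of a type and less RNA per cell cannot be told apart, which applies to every difference below, and the part of the changed tissue mix in these differences was not tested.

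Levels were compared between genes as CPM per kilobase of exon. The length takes in every annotated exon of a gene over all its isoforms, so a gene with long minor isoforms can be placed too low. In vehicle contralateral tissue the highest was Aldoa, the aldolase of brain and muscle, at 477 ± 14.3 (SD, n = 5), and the next was Ldhb, the lactate dehydrogenase subunit typical of oxidative tissue, at 449.9 ± 39.7. The ranges of these genes overlapped (459.9 to 497 and 385 to 479.98). Pkm (278 ± 8.18), Eno2 (221 ± 21.1), Gapdh (208 ± 5.94), Mdh1 (194 ± 6.50) and Tpi1 (191 ± 4.14) followed. Other genes hold near copies of 76.8% of the Ldhb, 65.5% of the Pkm and 87.7% of the Gapdh transcript. Reads of these genes may be missing from their counts, so the order describes counted reads only. The lowest were Slc16a7 (0.778 ± 0.183), Hk2 (0.743 ± 0.0863) and Slc16a3 (0.542 ± 0.142), whose ranges overlapped in pairs of neighbours. The monocarboxylate transporter Slc16a7, the inducible hexokinase and the lactate exporter were thus the least represented mRNAs of the set away from the infarct. Within the 2-oxoglutarate dehydrogenase complex, the E1 gene Ogdh (38.4 ± 2.13) was above the E2 gene Dlst (14.0 ± 0.905), with ranges that did not overlap. The size of this gap rests in part on the exon lengths, 5456 and 9559 bases. By CPM without length the means were 209 and 134.

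The starts of these genes were examined because hypoxia-inducible factors bind a short core, ACGTG or GCGTG on either strand, and many glycolytic genes are textbook targets. RefSeq (GRCm38.p6) gave windows for 37 of the 40 genes, 55 windows in all; Slc2a3, Idh3a and Slc16a7 were not matched. At least 1 core lay in the 250 bases before the start in 40 of 55 windows (72.7%), against 38.6% of all 32851 windows. Member windows had a median GC content of 60.4%, all windows 52.4%, and the cores contain CG, so the shares are not matched for base composition. The 250 bases before the start are shown for 5 genes with different behaviour in the counts: Hk2 and Slc16a1, higher beside the infarct in both treatments, Pgam1, lower in both, Ldha, which edgeR called in neither, and Cs, lower beside the infarct in HPBCD tissue only. Capitals mark the cores, and overlapping cores on opposite strands appear as 1 run.
Hk2 (chr6:82774455-82774704, minus strand): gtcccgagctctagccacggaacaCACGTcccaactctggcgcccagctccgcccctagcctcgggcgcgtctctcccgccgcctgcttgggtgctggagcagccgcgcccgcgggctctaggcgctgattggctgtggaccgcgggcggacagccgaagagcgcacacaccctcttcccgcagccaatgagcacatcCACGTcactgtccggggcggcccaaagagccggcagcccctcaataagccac
Slc16a1 (chr3:104638414-104638663, plus strand): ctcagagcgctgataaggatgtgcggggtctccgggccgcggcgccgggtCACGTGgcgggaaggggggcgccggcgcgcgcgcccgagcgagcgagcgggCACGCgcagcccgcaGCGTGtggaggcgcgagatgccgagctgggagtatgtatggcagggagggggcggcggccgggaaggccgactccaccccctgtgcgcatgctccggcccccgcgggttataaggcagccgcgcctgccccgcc
Pgam1 (chr19:41911621-41911870, plus strand): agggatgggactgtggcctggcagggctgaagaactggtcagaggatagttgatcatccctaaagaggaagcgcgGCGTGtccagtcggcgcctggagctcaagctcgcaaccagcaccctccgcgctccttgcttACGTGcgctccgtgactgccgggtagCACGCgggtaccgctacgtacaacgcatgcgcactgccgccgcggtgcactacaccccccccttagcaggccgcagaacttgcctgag
Ldha (chr7:46845554-46845803, plus strand): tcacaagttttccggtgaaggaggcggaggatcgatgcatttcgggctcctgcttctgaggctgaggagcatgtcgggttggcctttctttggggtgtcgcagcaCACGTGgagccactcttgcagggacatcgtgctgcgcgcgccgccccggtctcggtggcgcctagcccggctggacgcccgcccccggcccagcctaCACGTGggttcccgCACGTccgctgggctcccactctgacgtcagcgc
Cs (chr10:128337477-128337726, plus strand): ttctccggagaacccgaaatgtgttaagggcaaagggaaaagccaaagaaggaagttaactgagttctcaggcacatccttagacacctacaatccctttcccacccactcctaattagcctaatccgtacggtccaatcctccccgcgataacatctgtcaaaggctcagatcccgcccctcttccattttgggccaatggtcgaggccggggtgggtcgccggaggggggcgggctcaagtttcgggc
Matches numbered 2 in Hk2, 4 in Slc16a1, 3 in Pgam1, 5 in Ldha and 0 in Cs. The second start of Ldha, not shown, had 1 match. The GC box GGGCGG (either strand) was in 27 of 55 member windows (49.1%) and 32.7% of all windows. The E-box CACGTG, a palindrome that overlaps the first core, was in 14.5% and 6.0%. The letters TATAAA, searched on the strand of the gene only, were in 0 of 55 member windows and 7.6% of all windows. A match of letters is a description of sequence only.

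Tissue beside the infarct was compared with the opposite hemisphere, separately in each treatment, to find which steps of glucose oxidation differ at 7 weeks. In vehicle tissue 4 of the 40 genes were higher and 16 lower at an adjusted p-value under 0.05, where 20.2% of all 15801 genes tested were called, 10.5% higher and 9.70% lower. In HPBCD tissue 6 were higher and 26 lower, where 54.6% of 16047 genes were called, 30.3% higher and 24.3% lower. Since most of the 40 genes are well expressed, the shares among genes of at least 10 CPM are closer to the point: 9.32% of these were higher and 13.3% lower in vehicle tissue, and 26.4% higher and 31.2% lower in HPBCD tissue. The sign, called or not, was negative for 29 of the 40 in vehicle (48.0% of all genes) and for 33 in HPBCD tissue (47.9%). The TCA cycle held the largest share of lower genes of the 4 groups in both treatments (9 of 12 and 10 of 12), glycolysis had 6 and 10 of 16, lactate handling 1 and 1 of 5 and pyruvate dehydrogenase 0 and 5 of 7. Median log2 fold changes were -0.15 over the 40 genes in vehicle and -0.35 in HPBCD tissue, with all genes at 0.01 and 0.03. The groups did not overlap for 14 lower and 2 higher members in vehicle tissue (6.70% and 6.72% of all genes) and for 23 lower and 6 higher members in HPBCD tissue (18.3% and 24.3% of all genes). Leaving out 1 library at a time left 12 to 21 members called in vehicle tissue, with 13 without peri-infarct replicate 3, peri-infarct replicate 4 or contralateral replicate 2 and 12 without contralateral replicate 5, and 30 to 35 in HPBCD tissue.

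**Figure D1:**
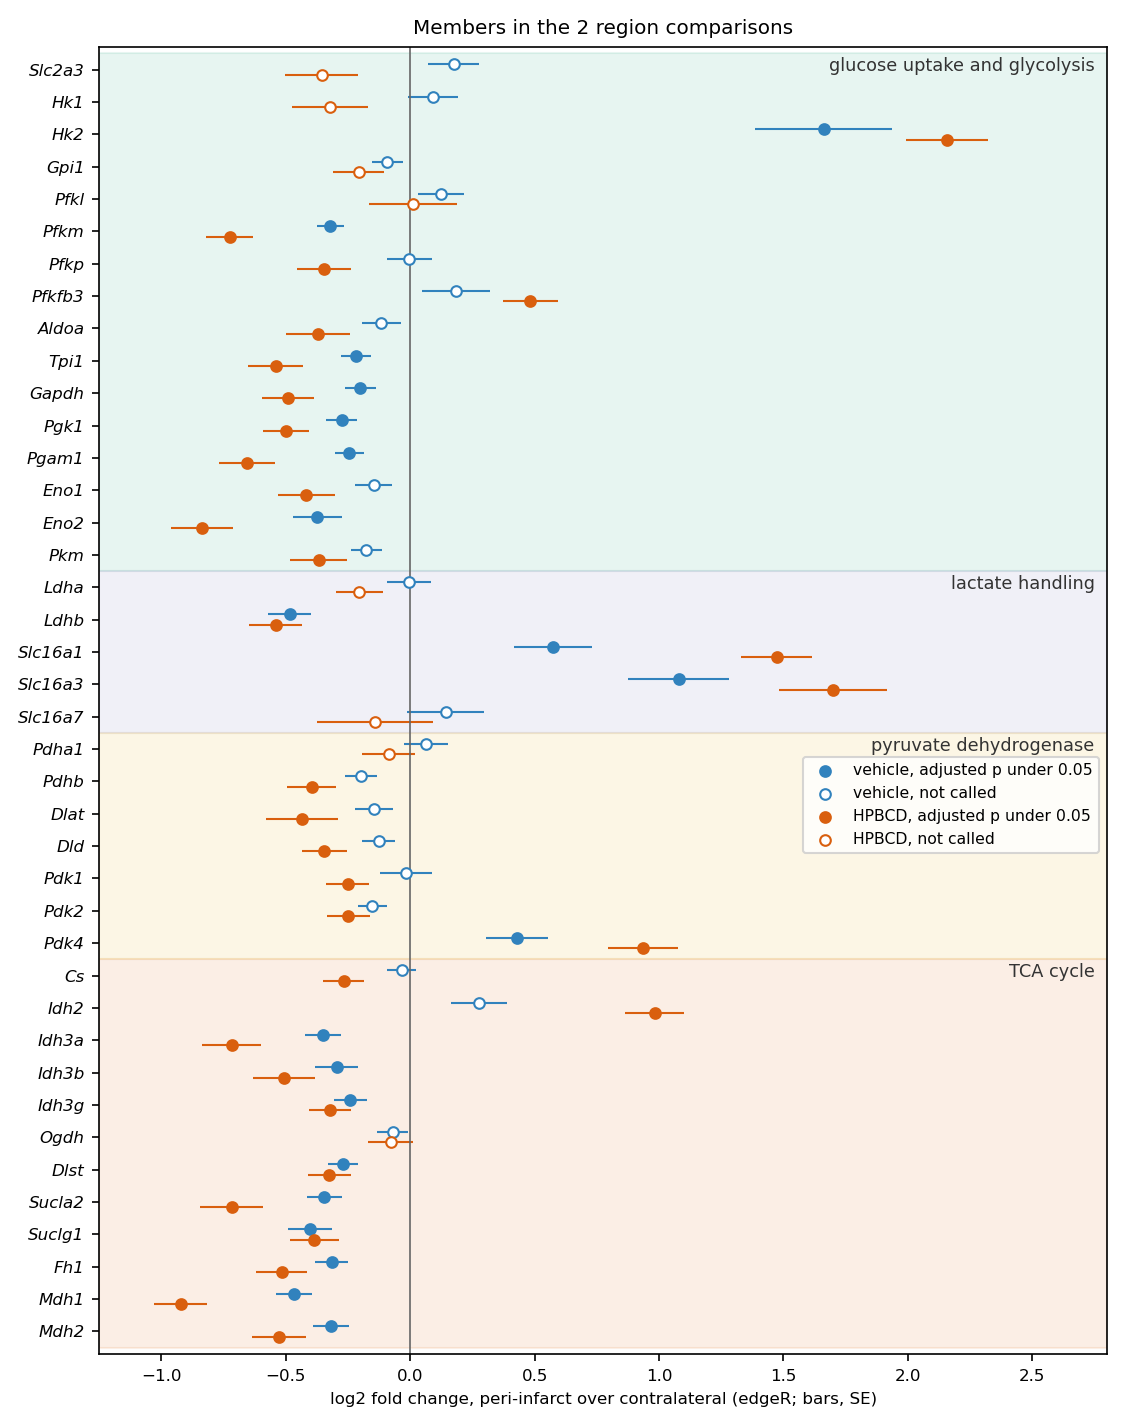
Log2 fold change of each of the 40 genes between peri-infarct and contralateral tissue, in vehicle (blue) and HPBCD (orange) libraries, 5 per group; bars are the SE, filled points had an adjusted p-value under 0.05. Hk2, Slc16a1, Slc16a3, Pdk4, Idh2 and Pfkfb3 lie to the right of 0 in both treatments and most other genes lie to the left, Mdh1 farthest in HPBCD tissue at -0.92.

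Both region comparisons use different libraries and can be set side by side. The sign was the same for 36 of 40 genes, as it was for 80.2% of the 15570 genes tested in both, and 37 were farther from 0 in HPBCD tissue, as were 78.9% of all genes. In both treatments 20 were called, all in the same direction (18.7% of all genes). A further 12 were called by edgeR in HPBCD tissue only (35.6% of all genes) and 0 in vehicle tissue only (1.7%). Larger differences in HPBCD tissue were thus general to the genes tested. Across the 40 genes, which are not independent replicates, the correlation of log2 fold changes was 0.94 (Pearson) and 0.89 (Spearman), given as a description. The 8 genes called in neither by edgeR were Slc2a3, Hk1, Gpi1, Pfkl, Ldha, Slc16a7, Pdha1 and Ogdh, that is, the main neuronal glucose transporter, the housekeeping hexokinase, the isomerase after it, the liver-type phosphofructokinase, the A subunit of lactate dehydrogenase, a high-affinity monocarboxylate transporter, the catalytic E1 subunit of pyruvate dehydrogenase and that of 2-oxoglutarate dehydrogenase. In HPBCD tissue 4 of these 8, all with negative values, passed in other fits, and 36 of the 40 genes were called by DESeq2, 35 in 1 fit of 4 groups and 34 by limma voom, with RLE factors or without a filter on low counts. DESeq2 called Slc2a3 (adjusted p = 0.0257), Hk1 (0.0351), Gpi1 (0.0271) and Ldha (0.0164), and limma voom called Slc2a3 (0.0232) and Hk1 (0.00911). Hk1 also passed with the animal as a block (adjusted p = 0.0472). Leaving out HPBCD peri-infarct replicate 1 brought Slc2a3 (0.0101), Hk1 (0.0425) and Ldha (0.0363) under the threshold, and leaving out replicate 2 of that group brought Hk1 (0.0101) and Gpi1 (0.0473).

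Of the 40 genes, the largest region difference in vehicle and in HPBCD tissue was that of an enzyme of the first step. Hk2 (ENSMUSG00000000628, chr6:82725025-82774454, minus strand), an inducible hexokinase that binds mitochondria, had 5.11, 3.98, 4.27, 4.84 and 3.99 CPM in vehicle contralateral and 10.5, 6.92, 23.4, 16.6 and 13.4 CPM in vehicle peri-infarct libraries. In HPBCD libraries it had 3.94, 4.99, 3.31, 3.80 and 5.19 CPM contralaterally and 18.0, 19.2, 16.9, 25.2 and 15.9 CPM beside the infarct. The regions did not overlap in either treatment, and the spread between animals was widest in vehicle peri-infarct tissue. The log2 fold change was 1.66 ± 0.28 (SE) in vehicle (adjusted p = 0.00324) and 2.16 ± 0.17 in HPBCD tissue (adjusted p = 9e-07). Pfkfb3, which makes the allosteric activator of phosphofructokinase, was higher in HPBCD tissue (log2 fold change 0.48 ± 0.11, adjusted p = 0.00276) and at 0.18 ± 0.14 in vehicle tissue (adjusted p = 0.369).

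Of the 16 glycolysis genes, 6 were lower beside the infarct in vehicle tissue (Pfkm, Tpi1, Gapdh, Pgk1, Pgam1 and Eno2), and 10 in HPBCD tissue. Eno2 (ENSMUSG00000004267, chr6:124760053-124769673, minus strand), the neuronal enolase, had 1170.2, 1064, 980.1, 907 and 1067 CPM in vehicle contralateral and 855, 952, 684, 769 and 779 CPM in vehicle peri-infarct libraries. In HPBCD libraries the values were 1155, 1056, 994, 1108 and 1076 CPM and 663, 682, 548, 457 and 659 CPM. Peri-infarct replicate 2 of the vehicle group lay above the lowest contralateral library, while the HPBCD regions were far apart. Log2 fold changes were -0.37 ± 0.10 (adjusted p = 0.0235) and -0.84 ± 0.12 (adjusted p = 9.68e-05). The vehicle call of Eno2 was lost without peri-infarct replicate 3, 4 or 5 or contralateral replicate 1, 2 or 5, with adjusted p-values of 0.0509 to 0.064.

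Pfkm (ENSMUSG00000033065, chr15:98092589-98132451, plus strand), the muscle-type phosphofructokinase and the predominant isoform here by length-scaled level, varied little between libraries outside the HPBCD peri-infarct group. It had 423, 433, 418, 435 and 426 CPM in vehicle contralateral and 351, 357, 335, 339 and 343 CPM in vehicle peri-infarct libraries. In HPBCD libraries it had 449, 455, 435, 438 and 422 CPM contralaterally and 294, 275, 249, 224 and 286 CPM beside the infarct. Neither pair of regions overlapped, and the log2 fold changes were -0.32 ± 0.06 (adjusted p = 0.00356) and -0.73 ± 0.10 (adjusted p = 3.74e-05). Phosphoglycerate mutase, Pgam1 (ENSMUSG00000011752, chr19:41911923-41918660, plus strand), had 79.8, 84.5, 86.7, 90.2 and 91.6 CPM in vehicle contralateral and 69.9, 75.5, 69.6, 74.2 and 79.1 CPM in vehicle peri-infarct libraries. In HPBCD libraries Pgam1 had 105, 88.4, 85.8, 94.3 and 88.7 CPM and 66.2, 66.5, 54.9, 46.1 and 58.9 CPM. The regions again did not overlap, by a narrow margin in vehicle tissue, and log2 fold changes were -0.25 ± 0.06 and -0.66 ± 0.11. Triosephosphate isomerase (Tpi1), Gapdh and phosphoglycerate kinase (Pgk1) fell by 0.22, 0.20 and 0.28 on the log2 scale in vehicle and by 0.54, 0.49 and 0.50 in HPBCD tissue. With the animal as a block, the vehicle calls of Tpi1 and Gapdh were lost (adjusted p = 0.0538 and 0.0673). Without 1 library those calls held in 4 and 2 of 10 fits, with adjusted p-values up to 0.0901 and 0.114, and that of Pgam1 in 8, being lost without contralateral replicate 3 or 5. Aldoa, Pfkp, Eno1 and Pkm were called lower by edgeR in HPBCD tissue and not in vehicle tissue, with log2 fold changes of -0.35 to -0.42 and of -0.18 to -0.003. Pkm passed in vehicle tissue as well with DESeq2 (adjusted p = 0.0018) and limma voom (0.026). The call of Aldoa was lost without HPBCD contralateral replicate 1, at an adjusted p of 0.066.

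Of the 5 genes of lactate handling, the transporters Slc16a1 and Slc16a3 were higher and the dehydrogenase subunit Ldhb was lower in both treatments, and Slc16a7 and Ldha were called in neither by edgeR. Slc16a3 (MCT4; ENSMUSG00000025161, chr11:120948480-120960868, plus strand), the low-affinity exporter of lactate, had 2.86, 2.12, 3.91, 3.32 and 2.21 CPM in vehicle contralateral and 4.84, 6.05, 7.85, 6.36 and 5.60 CPM in vehicle peri-infarct libraries. HPBCD libraries gave 2.25, 2.47, 1.52, 2.51 and 1.35 CPM and 7.78, 4.31, 6.49, 7.73 and 6.60 CPM. The regions did not overlap in either treatment although the gene was the least counted of the 40. Log2 fold changes were 1.08 ± 0.20 (adjusted p = 0.00532) and 1.70 ± 0.22 (adjusted p = 3.24e-05).

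Slc16a1 (MCT1; ENSMUSG00000032902, chr3:104638668-104658462, plus strand), a lactate and ketone carrier of glia and endothelium, had 51.7, 49.5, 61.0, 47.1 and 52.4 CPM in vehicle contralateral and 62.1, 53.6, 97.5, 94.1 and 85.6 CPM in vehicle peri-infarct libraries. In HPBCD libraries it had 45.8, 50.02, 52.2, 48.9 and 44.3 CPM contralaterally and 108, 109, 132, 191 and 129.5 CPM beside the infarct. Peri-infarct replicate 2 of the vehicle group lay within the contralateral range, whereas every HPBCD peri-infarct library exceeded every library of the other 3 groups. Log2 fold changes were 0.57 ± 0.16 (adjusted p = 0.0235) and 1.47 ± 0.14 (adjusted p = 3.71e-06). The vehicle call of Slc16a1 was lost without peri-infarct replicate 3 or 4 or contralateral replicate 2 or 5, at adjusted p-values of 0.0502 to 0.0619.

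Ldhb (ENSMUSG00000030246, chr6:142490249-142507957, minus strand), whose subunit favours oxidation of lactate to pyruvate, had 754, 752, 730.2, 604 and 692 CPM in vehicle contralateral and 504, 493, 565, 527 and 453 CPM in vehicle peri-infarct libraries. In HPBCD libraries the values were 802, 629.8, 646, 667 and 703 CPM and 517, 377, 470.0, 486 and 524 CPM. Regions did not overlap, and Ldhb was one of the few genes whose region difference was of like size in both treatments, -0.49 ± 0.09 (adjusted p = 0.00449) and -0.54 ± 0.11 (adjusted p = 0.000844). Ldha (ENSMUSG00000063229, chr7:46841475-46855627, plus strand), the subunit that favours lactate formation, had 268, 262, 289, 308 and 306 CPM in vehicle contralateral and 292, 319, 233, 285 and 311 CPM in vehicle peri-infarct libraries. HPBCD libraries had 292, 254, 229, 259 and 252 CPM of Ldha contralaterally and 249, 229, 206, 204 and 226 CPM beside the infarct. The ranges overlapped in both treatments, and the log2 fold changes were -0.01 ± 0.09 (adjusted p = 0.970) and -0.20 ± 0.09 (adjusted p = 0.0826). The call of Ldha in HPBCD tissue depended on the fit (adjusted p = 0.0164 by DESeq2 and 0.0404 with RLE factors). Over the 5 genes of lactate handling the median log2 fold change in HPBCD tissue was -0.14, while the mean log2 level of the same genes was higher beside the infarct, so median and mean differ in sign and neither describes the group.

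**Figure D2:**
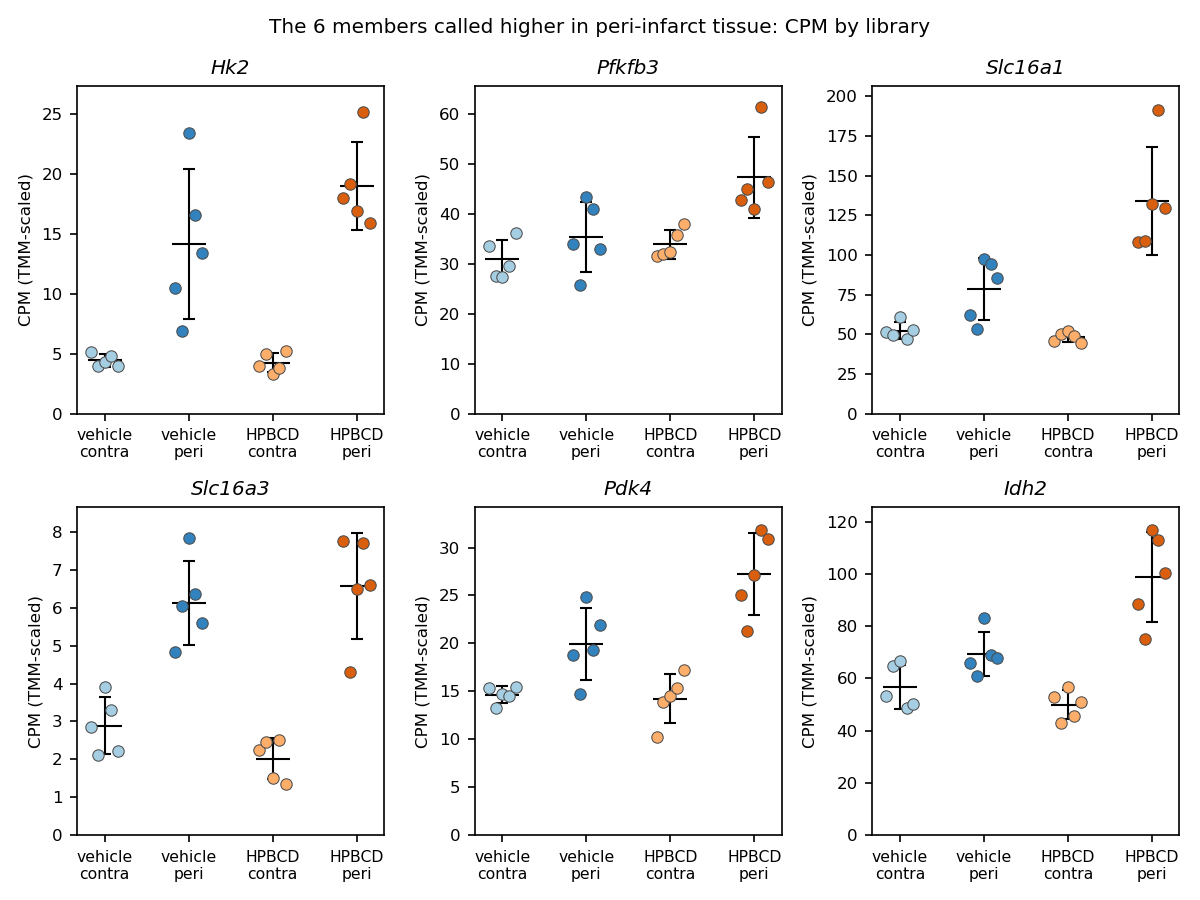
CPM (TMM-scaled) of the 6 genes called higher in HPBCD peri-infarct tissue (Pfkfb3 and Idh2 were not called in vehicle tissue), by library, in the 4 groups; bars are the mean and SD over 5 libraries. Hk2 and Slc16a3 separate the regions in both treatments, while the other 4 separate them in HPBCD tissue and overlap in vehicle tissue.

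At the branch point 1 of the 3 kinases was higher beside the infarct in both treatments. Pdk4 (ENSMUSG00000019577, chr6:5483351-5496309, minus strand), the fasting-induced kinase that inactivates pyruvate dehydrogenase, had 15.4, 13.2, 14.8, 14.5 and 15.4 CPM in vehicle contralateral and 18.8, 14.7, 24.8, 19.3 and 21.9 CPM in vehicle peri-infarct libraries. With HPBCD, Pdk4 had 10.2, 13.9, 14.5, 15.4 and 17.2 CPM and 25.1, 21.3, 27.2, 31.8 and 30.9 CPM. Only peri-infarct replicate 2 of the vehicle group lay within the contralateral range. Log2 fold changes were 0.43 ± 0.13 (adjusted p = 0.0326) and 0.94 ± 0.14 (adjusted p = 0.000112), and the vehicle call held in 3 of 10 fits without 1 library. It was lost without any of peri-infarct replicates 1, 3, 4 and 5 or contralateral replicates 2, 3 and 5, at adjusted p-values up to 0.072.

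Of the 4 subunit genes of the complex, Pdhb, Dlat and Dld were lower in HPBCD tissue and Pdha1 was not called, and none of the 4 passed the threshold in vehicle tissue by edgeR. Dlat (ENSMUSG00000000168, chr9:50634633-50659780, minus strand), the E2 core, had 82.0, 93.2, 87.2, 97.4 and 95.8 CPM in vehicle contralateral and 92.2, 86.9, 72.8, 82.3 and 81.5 CPM in vehicle peri-infarct libraries. HPBCD libraries had 98.2, 93.5, 92.8, 100.1 and 83.5 CPM of Dlat contralaterally and 67.9, 95.3, 60.3, 53.3 and 67.8 CPM beside the infarct. Peri-infarct replicate 2 of the HPBCD group stayed within the contralateral range and the other 4 lay below it, and the log2 fold change was -0.44 ± 0.15 (adjusted p = 0.0219). Pdhb (ENSMUSG00000021748, chr14:8165996-8173025, minus strand), the beta chain of E1, had 97.1, 94.7, 96.2, 90.5 and 94.6 CPM in vehicle contralateral and 86.1, 91.7, 73.1, 81.3 and 84.1 CPM in vehicle peri-infarct libraries. In HPBCD libraries Pdhb had 105, 89.0, 87.1, 96.1 and 93.8 CPM and 77.1, 80.3, 66.5, 61.0 and 72.4 CPM. The vehicle ranges touched at 1 library, and log2 fold changes were -0.20 ± 0.07 (adjusted p = 0.0515) and -0.40 ± 0.10 (adjusted p = 0.00409). In vehicle tissue Pdhb passed with DESeq2 (adjusted p = 0.0205), limma voom (0.0176), RLE factors (0.0466) and without vehicle peri-infarct replicate 2 (0.022) or contralateral replicate 4 (0.0395). Dld, the E3 subunit, was at -0.35 ± 0.09 in HPBCD tissue (adjusted p = 0.00574) and Pdha1, the catalytic E1 chain, at -0.09 ± 0.11 (adjusted p = 0.521). Of the other kinases, Pdk1 and Pdk2 were each at -0.25 in HPBCD tissue (adjusted p = 0.024 and 0.0279). In vehicle tissue Pdk2 passed with DESeq2 (adjusted p = 0.0268) and limma voom (0.0411) and not with edgeR. The call of Pdk1 was lost with the animal as a block (adjusted p = 0.0532) and without HPBCD contralateral replicate 2, 4 or 5, and that of Pdk2 without HPBCD contralateral replicate 1 (adjusted p = 0.0585).

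Of the 12 TCA cycle genes, 9 were lower beside the infarct in vehicle and 10 in HPBCD tissue, where 1 was higher. Mdh1 (ENSMUSG00000020321, chr11:21556787-21572367, minus strand), the cytosolic malate dehydrogenase of the malate-aspartate shuttle, had 493, 498, 509, 473 and 517 CPM in vehicle contralateral and 355, 393, 310.2, 367 and 394 CPM in vehicle peri-infarct libraries. In HPBCD libraries it had 573, 480.3, 490.0, 519 and 510.0 CPM contralaterally and 294, 277, 257, 217 and 309 CPM beside the infarct. The 3 levels, contralateral, vehicle peri-infarct and HPBCD peri-infarct, did not overlap with each other. Log2 fold changes were -0.47 ± 0.07 (adjusted p = 0.00263) and -0.92 ± 0.11 (adjusted p = 1.55e-05).

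Idh2 (ENSMUSG00000030541, chr7:80094846-80115392, minus strand), the NADP-dependent isocitrate dehydrogenase of mitochondria, which makes NADPH rather than NADH, was the higher gene. It had 53.3, 64.6, 66.8, 48.7 and 50.3 CPM in vehicle contralateral and 65.8, 60.8, 83.3, 68.9 and 67.7 CPM in vehicle peri-infarct libraries. With HPBCD, Idh2 had 52.9, 43.1, 56.9, 45.6 and 51.1 CPM and 88.5, 75.2, 117, 113 and 100.5 CPM. The vehicle ranges overlapped and the HPBCD ranges did not, with log2 fold changes of 0.28 ± 0.11 (adjusted p = 0.103) and 0.98 ± 0.12 (adjusted p = 2.18e-05). The NAD-dependent enzyme of the same step went the other way in all 3 subunits: Idh3a, Idh3b and Idh3g fell by 0.35, 0.30 and 0.24 on the log2 scale in vehicle and by 0.72, 0.51 and 0.32 in HPBCD tissue. Without 1 library the vehicle calls of Idh3b and Idh3g held in 3 and 5 of 10 fits, with adjusted p-values up to 0.0825 and 0.0879.

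The succinyl-CoA ligase genes Sucla2 and Suclg1 fell by 0.35 and 0.40 on the log2 scale in vehicle and by 0.72 and 0.39 in HPBCD tissue. The interaction was at -0.39 ± 0.14 for Sucla2, the ATP-forming beta subunit (adjusted p = 0.0733), and at 0.01 ± 0.13 for Suclg1 (adjusted p = 0.982). Fumarase (Fh1), the mitochondrial malate dehydrogenase Mdh2 and the E2 subunit Dlst were at -0.32, -0.32 and -0.27 in vehicle and at -0.52, -0.53 and -0.33 in HPBCD tissue, all called. Citrate synthase (Cs), the entry step of the cycle, was at -0.03 ± 0.06 in vehicle (adjusted p = 0.720) and at -0.27 ± 0.08 in HPBCD tissue (adjusted p = 0.0152). Ogdh was at -0.07 and -0.08, neither called (adjusted p = 0.44 and 0.481).

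**Figure D3:**
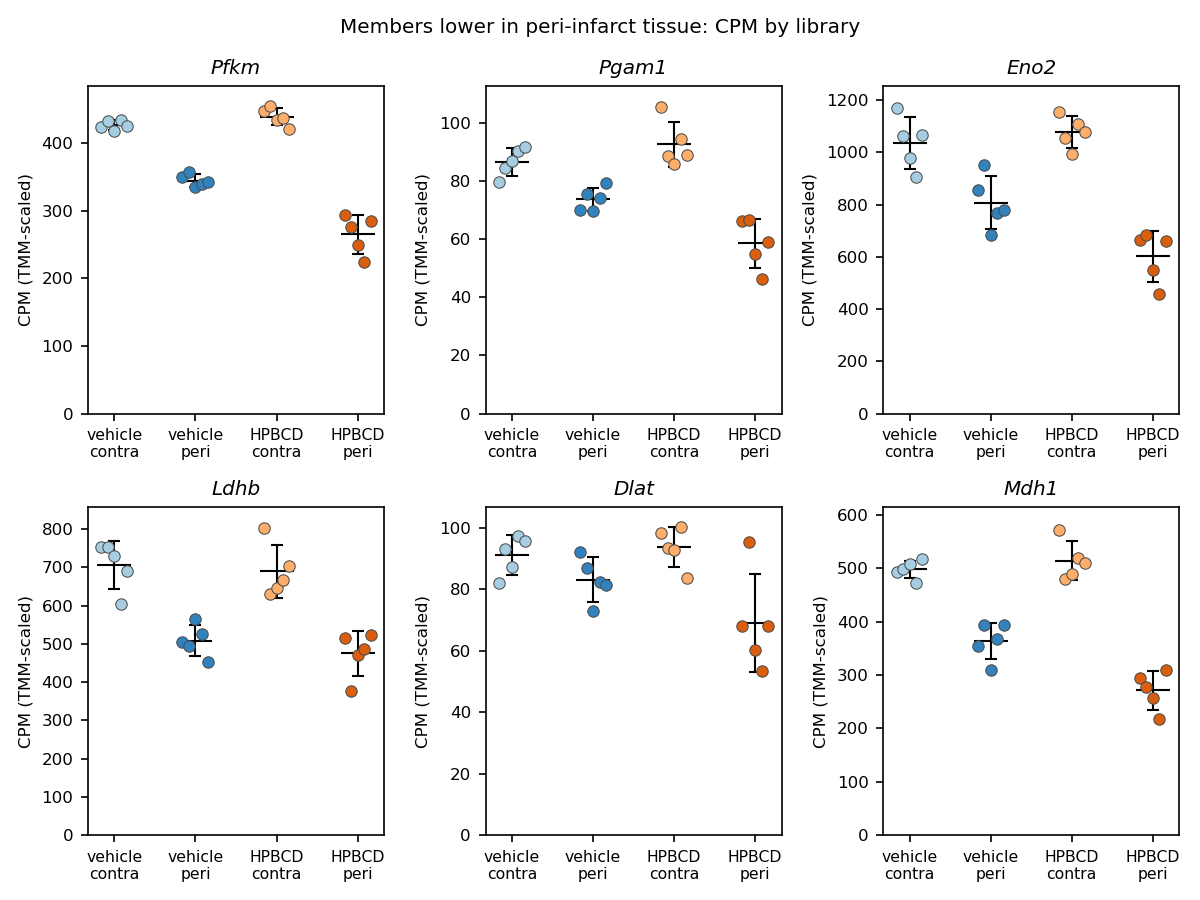
CPM (TMM-scaled) by library in the 4 groups for 6 genes that were lower beside the infarct, with the mean and SD over 5 libraries. Pfkm and Mdh1 form 3 separate levels, with HPBCD peri-infarct libraries lowest, while Ldhb is at a like level in both peri-infarct groups.

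The mean log2 level of each group of genes, set to 0 at the vehicle contralateral mean, is given by library. TCA cycle genes were at -0.17, -0.19, -0.32, -0.25 and -0.19 in vehicle peri-infarct and at -0.33, -0.31, -0.42, -0.57 and -0.31 in HPBCD peri-infarct libraries, with contralateral libraries at -0.09 to 0.12. Glycolysis genes were at -0.05 to 0.08 in vehicle peri-infarct libraries, within the contralateral range of -0.14 to 0.07 or just above it, and at -0.49 to -0.12 in HPBCD peri-infarct libraries. That mean takes in Hk2, at 1.66 in vehicle tissue, whereas the median log2 fold change of the 16 genes there was -0.13, with 11 negative, 6 called lower and 1 higher. Lactate handling was at 0.19 to 0.34 and 0.15 to 0.44 in the peri-infarct groups, and pyruvate dehydrogenase at -0.06 to 0.02 and -0.25 to -0.01.

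**Figure D4:**
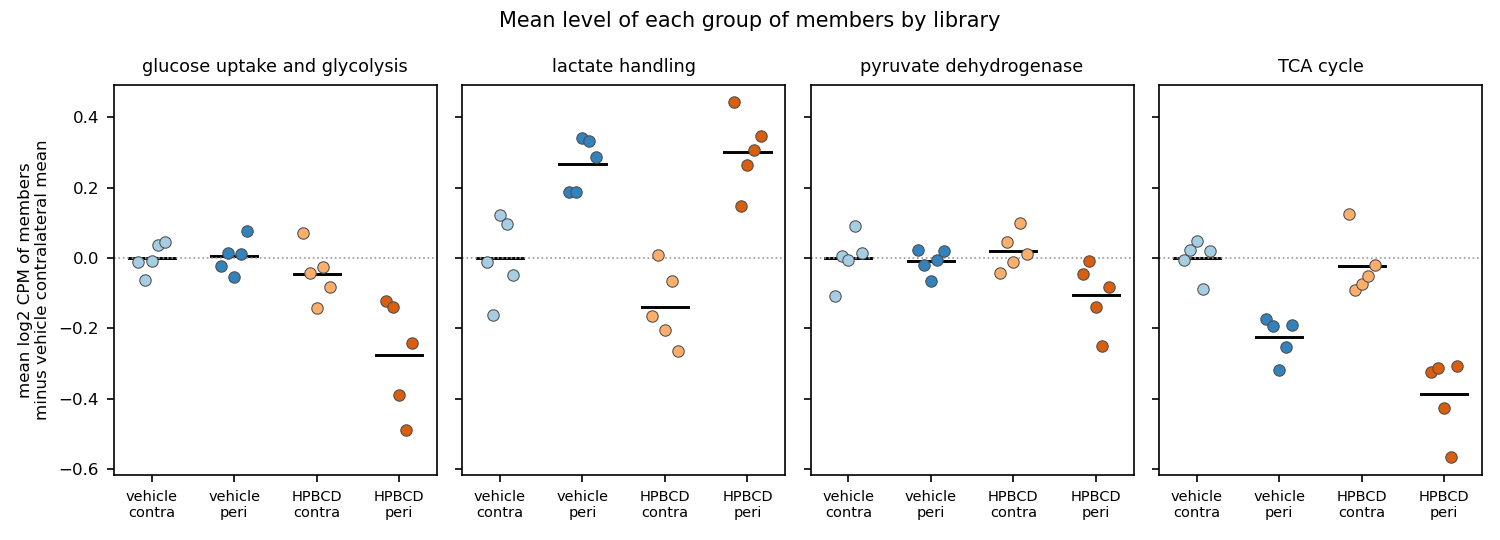
Mean log2 CPM of the genes of each group per library, minus the vehicle contralateral mean; points are the 5 libraries of a group and lines their mean. TCA cycle genes are below 0 in all 10 peri-infarct libraries, lactate handling is above 0 in all 10, and glycolysis genes are below 0 in the 5 HPBCD peri-infarct libraries.

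Peri-infarct tissue was then compared between treatments, in different animals. In the libraries labelled HPBCD 3 of the 40 genes were higher and 16 lower than in vehicle, where 21.4% of 16224 genes were called, 12.4% higher and 9.00% lower (11.4% and 12.7% of genes of at least 10 CPM). The sign was negative for 34 of the 40 and for 48.5% of all genes. Glycolysis accounted for 12 of the 16 lower genes, the TCA cycle for 3 (Cs, Mdh1 and Mdh2) and lactate handling for Ldha. Idh3a, a catalytic subunit of the NAD-dependent isocitrate dehydrogenase, was not called. With negative values it passed by DESeq2 (adjusted p = 0.0217), limma voom (0.0105), 1 fit of 4 groups (0.00797), RLE (0.0487) or upper-quartile factors (0.0455) and thinned counts (0.0498). The median log2 fold change was -0.35 over glycolysis, -0.23 over the TCA cycle, -0.19 over pyruvate dehydrogenase and -0.11 over lactate handling, with all genes at 0.01. The groups did not overlap for 15 lower genes and 1 higher gene, Slc16a1 (5.98% and 7.46% of all genes). These counts rested on single libraries: 0 genes were called without HPBCD peri-infarct replicate 3, 1 without replicate 2 of the vehicle group, 4 without vehicle replicate 1 or 5, 7 without HPBCD replicate 4 or 5 and 9 without vehicle replicate 4, but 17 without HPBCD replicate 1, 23 without vehicle replicate 3 and 27 without HPBCD replicate 2. The direction of every gene called was kept in all 10 of those fits, the adjusted p-values moving across the threshold. Without the filter on low counts 8 genes were called, and 24 by DESeq2 and 28 by limma voom.

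Slc2a3 (ENSMUSG00000003153, chr6:122727809-122801640, minus strand), the neuronal glucose transporter GLUT3, had the most negative treatment difference of the 40 genes. It had 121, 148, 119.7, 139 and 159 CPM in vehicle peri-infarct and 118, 91.0, 84.7, 59.7 and 97.8 CPM in HPBCD peri-infarct libraries. The groups did not overlap, the nearest values being 119.7 and 118, and the log2 fold change was -0.61 ± 0.16 (adjusted p = 0.0255). In contralateral tissue Slc2a3 had 116, 102, 114, 146 and 125 CPM with vehicle and 109, 125, 114, 127 and 104 CPM with HPBCD, so those ranges overlapped. The hexokinase Hk1 was also lower (-0.49 ± 0.16, adjusted p = 0.0475), as were Pfkm (-0.38 ± 0.09, adjusted p = 0.0194), Pfkp, Aldoa, Eno1 and Eno2 (each -0.42 to -0.43) and Gpi1, Tpi1, Gapdh, Pgk1 and Pgam1 (-0.29 to -0.36). Hk2 was at 0.42 ± 0.27 (adjusted p = 0.264) and Pfkfb3 at 0.41 ± 0.15 (adjusted p = 0.0642). Neither was called by edgeR, but Pfkfb3 passed with DESeq2 (adjusted p = 0.0421), limma voom (0.0433) and 1 fit of 4 groups (0.0201). Without vehicle peri-infarct replicate 3 both Hk2 (adjusted p = 0.0476) and Pfkfb3 (0.0317) passed.

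Slc16a1 was higher in HPBCD than in vehicle peri-infarct tissue, by 0.76 ± 0.20 (adjusted p = 0.0243), Idh2 by 0.50 ± 0.13 (adjusted p = 0.0221) and Pdk4 by 0.45 ± 0.15 (adjusted p = 0.0482). The library values given above show all 5 HPBCD values of Slc16a1 above the vehicle range, and ranges that overlap at 1 or more libraries for Idh2 and Pdk4. The calls of Slc16a1 and Idh2 were lost without replicate 1 or 2 of vehicle or 3 of HPBCD (adjusted p = 0.0513 to 0.0606), and that of Pdk4 held in 2 of 10 fits, those without vehicle replicate 3 or HPBCD replicate 2. Ldha was lower (-0.37 ± 0.10, adjusted p = 0.0278), while Ldhb (-0.11 ± 0.10, adjusted p = 0.470) and Slc16a3 (0.09 ± 0.18, adjusted p = 0.719) were not called. Mdh1 was lower by 0.43 on the log2 scale (adjusted p = 0.0247), and Dlat, with the most negative difference of the pyruvate dehydrogenase genes, was at -0.27 ± 0.14 (adjusted p = 0.180, and 0.02 by limma voom). Neuronal markers were lower in these HPBCD libraries (5 of 7 called, 2826 to 5260 against 5096 to 7066 summed CPM) and fibroblast and meningeal markers higher (5 of 5 called, 292 to 957 against 45.1 to 255 CPM), and their part in the differences was not tested. Reactive astrocyte markers were higher as well in the libraries labelled HPBCD (3 of 6 called, 3177 to 6476 against 720.1 to 3671 CPM), as were ependymal markers (3 of 4, 68.7 to 135 against 18.1 to 46.3 CPM) and red blood cell markers (2 of 2 tested, 8.62 to 73.0 against 5.46 to 10.2 CPM), while 2 of 5 excitatory neuron markers were lower (2130 to 4867 against 4021 to 5427 CPM). Of the other lists, 2 of 7 astrocyte, 1 of 6 oligodendrocyte and 1 of 5 endothelial markers were higher, and 0 of the microglial, oligodendrocyte precursor, striatal and fast-spiking interneuron markers were called by edgeR. If treatment labels were exchanged for whole animals, the signs here and in the interaction would turn and the region comparisons would trade names, and if they were exchanged for peri-infarct libraries alone, the region comparisons and the interaction would change in value. Whether the labels match the agents given was not tested.

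In contralateral tissue 0 of 15469 genes passed the threshold between treatments (0%, with 1224 genes, 7.91%, at an unadjusted p under 0.05), so none of the 40 did. At an unadjusted p under 0.05 stood 2 of the 40, Pfkl (-0.18) and Sucla2 (0.16), and DESeq2 and limma voom called 0 of the 40. Sucla2 alone showed no overlap between the groups, where 0.957% of all genes were higher and 0.549% lower without overlap. Log2 fold changes ran from -0.52 for Slc16a3 (SE 0.24, adjusted p = 0.625) to 0.16, with a median of -0.04 and all genes at -0.01, and 52.1% of all genes had a negative sign.

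Whether the region difference itself depended on treatment was tested as the interaction over all 20 libraries. Of the 40 genes, 2 were called higher (a more positive region difference with HPBCD) and 3 lower, where 9.41% of 16758 genes were called, 5.03% higher and 4.38% lower (4.67% and 6.83% of genes of at least 10 CPM) and 49.1% had a negative sign. Slc16a1 had the largest, 0.89 ± 0.22 (adjusted p = 0.0242), and was called in all 20 fits without 1 library. Idh2 was at 0.70 ± 0.17 (adjusted p = 0.0235), lost only without vehicle peri-infarct replicate 2 (0.0503). Pfkm was at -0.42 ± 0.10 (adjusted p = 0.0186) and was called in all 20 fits. Mdh1 was at -0.47 ± 0.13 (adjusted p = 0.0283), lost without peri-infarct replicate 2 of vehicle or 3 of HPBCD, or contralateral replicate 4 of HPBCD (0.0506 to 0.0609). Pgam1 was at -0.43 ± 0.12 (adjusted p = 0.0362) and was called in 8 of 20 such fits, with adjusted p-values up to 0.0742 in the 12 others: without vehicle peri-infarct replicate 1, 2, 4 or 5, vehicle contralateral replicate 1, 2 or 3, HPBCD peri-infarct replicate 3 or 4, or HPBCD contralateral replicate 1, 2 or 4. The count of 5 became 2 without vehicle peri-infarct replicate 2, and 3 without replicate 3 (peri-infarct) or 4 (contralateral) of the HPBCD group. It became 11 when vehicle peri-infarct replicate 3 was left out and 12 when peri-infarct replicate 2 of HPBCD was. With the animal as a block, Eno2 (adjusted p = 0.0433, 0.0542 without) and Pdk4 (0.0469, 0.108 without) passed as well. DESeq2 called 12 of the 40 and limma voom 15, more than 1.5 times the 5 called by edgeR. Of the 12 genes called between regions by edgeR in HPBCD tissue only, Idh2 was the 1 called in the interaction, and the region differences of the other 11 were not shown to differ between treatments. The same holds for Hk2 (0.48 ± 0.33, adjusted p = 0.347) and Slc16a3 (0.61 ± 0.30, adjusted p = 0.186), which were higher beside the infarct in both treatments. In the interaction 5 of 7 neuronal, 2 of 5 excitatory neuron and 1 of 4 fast-spiking interneuron markers were called lower. Called higher were 4 of 5 fibroblast and meningeal, 4 of 4 ependymal, 3 of 6 reactive astrocyte, 2 of 6 oligodendrocyte, 1 of 7 astrocyte and 1 of 5 endothelial markers. The part of the tissue mix was not tested.

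Several steps have alternative enzymes, and their ratio within a library does not depend on library scaling. Per exon length, Hk2 stood to Hk1 at a log2 ratio of -6.26 ± 0.26 (SD, n = 5) in vehicle contralateral and -4.80 ± 0.79 in vehicle peri-infarct libraries, and at -6.29 ± 0.31 and -3.77 ± 0.52 in HPBCD libraries. Hk2 thus stayed the minor hexokinase in each group, with group means of 0.0128 to 0.0732 as a linear ratio. Ldha to Ldhb was -2.38 ± 0.23 and -1.90 ± 0.29 in vehicle, and -2.50 ± 0.08 and -2.16 ± 0.22 in HPBCD libraries, with ranges of the regions that overlapped in vehicle libraries. Pdk4 to Pdk2 was -3.21 ± 0.16 and -2.65 ± 0.32 in vehicle, and -3.18 ± 0.38 and -1.99 ± 0.32 in HPBCD libraries. Of the transporters, Slc16a3 lay below Slc16a7 per exon length in contralateral tissue (-0.53 ± 0.39 and -1.16 ± 0.60) and above it beside the infarct (0.40 ± 0.42 and 0.71 ± 0.68), with libraries on the other side of 0 in both peri-infarct groups and in vehicle contralateral tissue. The side of 0 rests on the exon lengths used, 5318 bases for Slc16a3 and 11839 for Slc16a7. By CPM without length, Slc16a3 had the lower mean in all 4 groups. Beside the infarct these means were 6.14 against 10.3 CPM with vehicle and 6.58 against 9.09 CPM with HPBCD. Neuronal Eno2 to the widely expressed Eno1 went from 1.78 ± 0.17 to 1.56 ± 0.12 and from 1.99 ± 0.13 to 1.55 ± 0.13, a linear ratio of 2.93 to 3.98 in the 4 groups. Pfkl to Pfkm went from -2.22 ± 0.09 to -1.78 ± 0.17 and from -2.44 ± 0.12 to -1.74 ± 0.31, with regions apart in both treatments. In vehicle libraries the ranges of the regions also overlapped for Hk2 to Hk1, Pdk4 to Pdk2, Slc16a3 to Slc16a7 and Eno2 to Eno1. In HPBCD libraries none of the ratios named here overlapped between regions.

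**Figure D5:**
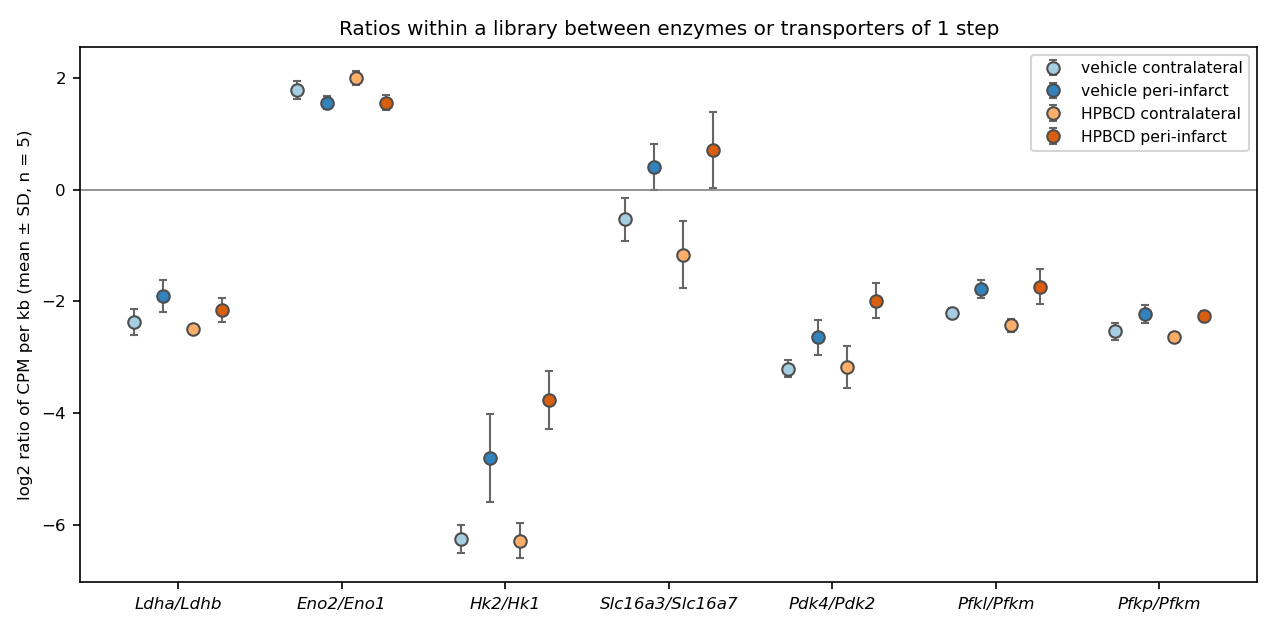
Log2 ratio of CPM per kilobase between enzymes or transporters of the same step, mean and SD over 5 libraries in each of the 4 groups. The Hk2 to Hk1 ratio differs most between regions, from -6.26 to -4.80 in vehicle and from -6.29 to -3.77 in HPBCD libraries. Slc16a3 to Slc16a7 crosses 0, a position that rests on the exon lengths used.

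Neighbouring genes of the pathway that are not among the 40 were counted from lists of pathway genes, and those named were chosen after their values were seen. The counts stand beside 20.2% of all genes called between regions in vehicle tissue (10.5% higher, 9.70% lower) and 54.6% in HPBCD tissue (30.3% higher, 24.3% lower), and nothing particular to these lists was tested. Of 7 pentose phosphate genes, 0 were called in vehicle tissue, and in HPBCD tissue 4 were higher and 0 lower beside the infarct, among them 6-phosphogluconate dehydrogenase Pgd (1.00 ± 0.12) and G6pdx (0.56 ± 0.11), the NADPH-forming steps. Pgd and Taldo1 were also called in the interaction (0.65 and 0.46). Of 10 glycogen genes, 3 were higher and 1 lower in vehicle and 4 higher and 1 lower in HPBCD tissue. Of 11 further genes of pyruvate and lactate handling, 1 was higher and 3 lower in vehicle and 1 higher and 4 lower in HPBCD tissue. The lower ones included both mitochondrial pyruvate carrier subunits, Mpc1 (-0.41 and -0.42) and Mpc2 (-0.40 and -0.58), and Pdp1 (-0.61 and -1.004), the phosphatase that reactivates pyruvate dehydrogenase.

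Of 18 further TCA and anaplerotic genes, 3 were higher and 5 lower in vehicle and 6 higher and 9 lower in HPBCD tissue. The aspartate aminotransferases Got1 (-0.45 and -0.93) and Got2 (-0.29 and -0.57), partners of Mdh1 and Mdh2 in the malate-aspartate shuttle, were lower, and the cytosolic NADP-dependent Idh1 was higher (0.35 and 0.64). Of further glycolytic genes, 1 was higher and 2 lower of 16 tested in vehicle and 4 higher and 3 lower of 17 in HPBCD tissue, with Hk3, a hexokinase of myeloid cells, the highest (1.43 ± 0.30 and 2.83 ± 0.23). Of 14 regulators, 3 were higher and 2 lower in vehicle and 5 higher and 3 lower in HPBCD tissue. As for the lists above, 20.2% of all genes were called in vehicle and 54.6% in HPBCD tissue. Hif1a was higher (0.32 and 0.34), and Ppargc1a (-0.35 and -0.69) and Esrra (-0.70 and -0.76), known drivers of mitochondrial genes, were lower in both.

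Some counts carry a limit of annotation. Transcripts of 13 of the 40 genes match another gene over at least 150 bases at 95% identity or more, and for 7 of them (Gapdh, Eno1, Ldhb, Pdhb, Pgk1, Pkm and Gpi1) such copies cover over 50% of the transcript, so part of their reads may be assigned to a copy or left out as not unique. Exons of Pfkp overlap those of Pitrm1 by 748 bases, of Gpi1 those of Gm26762 by 741 and of Pdha1 those of Map3k15 by 603, each on the opposite strand, and the strand option of the counting was not stated.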

How the data were processed

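Per the study's methods, stranded paired-end mRNA libraries of 20 tissue samples were demultiplexed with bcl2fastq 2.19, trimmed with Trimmomatic 0.32 and aligned to GRCm38 with STAR 2.5.2b, and the authors counted reads per gene with HTSeq. Which annotation release was used, and whether counting used strand, are not given in the sources used here. The deposited values are raw counts for 46078 genes per library, not normalized. Library totals leave out the 5 lines without a gene (no feature 4.39% to 9.50%, ambiguous 3.94% to 8.03%, not unique 16.6% to 24.3%). HPBCD contralateral replicate 4 held the highest no feature and ambiguous shares (next 5.86% and 4.16%) and the fewest gene counts. Total gene counts were 14445021 to 22171627 with a median of 19008532, and the value of 3 counts in CPM covers counting error only. Symbols, exon lengths and coordinates came from GENCODE M21 on GRCm38 (98.2% of genes matched), promoter windows from RefSeq GRCm38.p6.

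Counts were filtered by expression per comparison, scaled by TMM and tested by the edgeR 4.0.16 quasi-likelihood F test in R 4.3.3 over all genes, with Benjamini-Hochberg adjustment and a threshold of 0.05. All adjusted p-values are from this test unless DESeq2 or limma is named. The region comparisons used the 10 libraries of 1 treatment, the treatment comparisons the 10 of 1 region, and the interaction all 20. CPM are TMM-scaled, and SE was taken as the log2 fold change over the root of F. Labels name separate samples, and p-values measure the spread between them. Both region libraries of a replicate number carry 1 common identifier in the names of the deposited tables and were taken to be from 1 animal. Over the 10 pairs their deviations from group means correlated with a mean r of 0.14, and 6 pairs were over 0.1. Alternatives were DESeq2 1.42.0, limma 3.58.1 voom with quality weights, other scaling and filters, thinning, 1 fit of 4 groups, the animal as a block and leaving out each library. The tests were tried on simulated data with known changes, for the vehicle region comparison and the interaction. In each, DESeq2 recovered the largest share of the changes and also had a larger share of false calls than edgeR or limma voom. Genes called by DESeq2 and not by edgeR carry that limit.

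The 40 genes and all lists were chosen with earlier results of these data known. Any of the 40 may be named. Values per library are given for the gene with the most positive and the most negative log2 fold change of each group of genes in the region and peri-infarct treatment comparisons, and for genes called in the interaction.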

Additional observations from a re-analysis of the deposited data

Results flagged for a closer look

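Over 160 sets of 5 libraries (40 genes in 4 groups), 8 had 1 library far from the other 4 by Dixon's criterion, and chance gives about 1 in 20. HPBCD contralateral replicate 1 was the highest library for Gpi1 (533 CPM, next 432), Aldoa (1500 CPM, next 1220), Eno1 (387 CPM, next 305) and Fh1 (79.3 CPM, next 64.6). Pfkfb3 was highest in HPBCD peri-infarct replicate 4 (61.3 CPM, next 46.4). Dld was lowest in vehicle peri-infarct replicate 3 (114 CPM, next 128) and highest in HPBCD contralateral replicate 4 (156 CPM, next 142). Suclg1 was lowest in vehicle contralateral replicate 4 (94.9 CPM, next 117).

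The region difference depended on treatment, by edgeR's interaction test, for Slc16a1 (0.89 on the log2 scale), Idh2 (0.70), Pfkm (-0.42), Pgam1 (-0.43) and Mdh1 (-0.47).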

How the results depend on the processing

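With the animal as a replicate block, 18 of the 40 genes were called in the vehicle region comparison (20 without the block), 32 in the HPBCD region comparison and 7 in the interaction (5 without). Between treatments a replicate number joins different animals and is no pairing. A block on that number gave 22 genes called beside the infarct (19 without) and 0 contralaterally, and is no evidence for a gene. Without a filter on low counts, 8 genes were called between treatments beside the infarct, 6 of them lower. In the interaction DESeq2 called 12, 10 of them lower, and limma voom 15, 12 of them lower. With limma voom the median of lactate handling was 0.25 in the vehicle region comparison (0.143 by edgeR) and 0.066 in the interaction (-0.064 by edgeR). That of the TCA cycle was -0.10 in the interaction (-0.219 by edgeR). The cause of these changes was not tested.

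Leaving out 1 library gave 12 to 21 genes called in the vehicle region comparison (2 to 4 higher, 10 to 17 lower), 0 to 27 between treatments beside the infarct (0 to 5 higher, 0 to 24 lower) and 2 to 12 in the interaction (1 to 3 higher, 1 to 9 lower). Medians ran from -0.172 to -0.078 for glycolysis and from 0.083 to 0.293 for lactate handling in vehicle, and from -0.257 to -0.002 for lactate handling in HPBCD region comparisons. Of genes called in no region comparison, Ldha in vehicle tissue turned to 0.007 with limma voom and with 1 fit of 4 groups, 0.017 with at least 10 counts required and 0.002 with thinned counts, and ran from -0.049 to 0.076 without 1 library. Pfkl in HPBCD tissue turned to -0.025 with DESeq2 and with RLE factors, -0.056 with limma voom, -0.064 without a filter and -0.037 with the replicate block, and ran from -0.19 to 0.09 without 1 library. In other settings than leaving out a library, 965 values of single genes kept direction and side of the threshold, 41 passed it newly, 24 no longer passed and 9 reversed. Without 1 library, 1016 kept both, 169 lost the call, 16 gained it and 9 reversed. Depth limits the precision of Slc16a3 most, at 22 counts in its lowest library.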
